A study of Rattus norvegicus with 6 samples.

Results

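The 3p strands of the let-7 microRNA stem-loops were examined in small RNA libraries of rat plasma exosomes. Members were the 7 rows named rno-let-7a-1-3p, rno-let-7b-3p, rno-let-7c-2-3p, rno-let-7d-3p, rno-let-7e-3p, rno-let-7g-3p and rno-let-7i-3p, of 763 mature miRNAs in the count table. The rows of let-7a-1-3p and let-7c-2-3p held identical counts in every library and were counted once, which left 6 distinct members. The rule takes rows by name and uses no measured value, although the members were chosen with earlier results of these data known. Of the 12 let-7 and miR-98 3p rows of the table, 5 lay outside it (let-7a-2-3p, let-7c-1-3p, let-7f-1-3p, let-7f-2-3p and miR-98-3p).

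The study investigated the protection of the heart by plasma exosomes taken late after remote ischemic pre-conditioning (RIPC), and profiled their miRNAs as part of this. In RIPC, brief loss of blood flow in a limb precedes injury of a distant organ such as the heart. The rats were male Sprague-Dawley, given as 7 to 8 weeks old in the methods. RIPC rats received, under anesthesia, 4 cycles of 5 min ischemia and 5 min reperfusion of both hind limbs, and control rats did not. After 48 h both groups were anesthetized and blood was drawn. The methods do not say whether control rats were also anesthetized at the time of the cycles. Exosomes were pelleted by differential centrifugation, and their small RNA was sequenced in 3 libraries of control exosomes (C-exo) and 3 of RIPC exosomes (R-exo). Nothing in the labels says whether a library came from 1 animal or from several, so the p-values measure only the spread between these libraries, which may be technical. A pellet made this way can also hold other particles of plasma.

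A let-7 gene is transcribed as a hairpin whose stem carries a mature miRNA on each side. After cleavage the strands form a duplex, and the strand from the 5p side is usually kept in an Argonaute protein as the guide, while the 3p strand, called the passenger, is usually degraded. The guides of the family share a seed and are known as repressors of growth and cell cycle genes that accumulate in differentiated tissues, and they are abundant in blood. A seed, bases 2 to 8 of the mature strand, is the stretch that leads target recognition, so a 3p strand that is kept would read another set of targets than its guide.

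All 7 member names matched a mature sequence in RefSeq (assembly GRCr8), among 686 of the 763 names of the table. The 7 sequences are shown because the guides differ little from each other while the 3p strands differ also within the seed. The seed is in capitals and each sequence is written 5′ to 3′.
rno-let-7a-1-3p: cUAUACAAucuacugucuuucc
rno-let-7c-2-3p: cUAUACAAucuacugucuuucc
rno-let-7b-3p: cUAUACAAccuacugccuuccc
rno-let-7d-3p: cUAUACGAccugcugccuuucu
rno-let-7e-3p: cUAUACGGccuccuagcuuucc
rno-let-7g-3p: cUGUACAGgccacugccuugc
rno-let-7i-3p: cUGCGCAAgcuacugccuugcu
The strands of let-7a-1 and let-7c-2 are the same 22 bases, so no read can tell these stem-loops apart on the 3p side. let-7b-3p shares their seed and differs from let-7a-1-3p at U9C, U16C and U20C, counted from the 5′ end with the base of let-7a-1-3p named first. let-7d-3p differs at 5 bases (A7G, U9C, A12G, U16C and C22U), of which the first lies in the seed. let-7e-3p differs at 6 bases, let-7g-3p at 6 of the 21 compared and let-7i-3p at 7, and each of these 3, like let-7d-3p, has a seed that no other member has. The most distant members were let-7e-3p and let-7i-3p, with 11 differing bases.

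Outside the member names, the seed UAUACAA occurred in let-7f-1-3p, miR-98-3p and miR-3596d, and the seed UGUACAG in let-7a-2-3p. The seeds of let-7d-3p, let-7e-3p and let-7i-3p occurred in no other of the 686 matched strands. GC content ran from 36.4% in let-7a-1-3p through 50.0% in let-7b-3p and let-7d-3p to 61.9% in let-7g-3p.

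The guides are shown for comparison with 3 of the 3p strands that the results turn on. let-7a-5p and let-7d-5p differ at 2 bases and share the seed GAGGUAG, which all 9 let-7 and miR-98 guides carry.
rno-let-7a-5p: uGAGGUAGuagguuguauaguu
rno-let-7d-5p: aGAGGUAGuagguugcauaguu
rno-let-7i-5p: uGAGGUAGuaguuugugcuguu
The hairpin of let-7d is printed with both mature strands in capitals, because its strands were the most evenly represented of the family.
let-7d hairpin: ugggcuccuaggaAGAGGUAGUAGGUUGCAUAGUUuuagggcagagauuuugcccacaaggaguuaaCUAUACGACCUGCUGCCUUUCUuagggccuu
The 3p strand takes bases 68 to 89 of its 98 bases. In RefSeq, the let-7d gene lies in a cluster with let-7a-1 and let-7f-1, and let-7b lies beside let-7c-2, each within 3 kb. let-7e lies beside miR-99b and miR-125a, let-7g lies within Wdr82, and let-7i had no other miRNA gene within that distance.

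The libraries held between 5484209 and 7531737 counts, and a count of 3 corresponded to between 0.398 and 0.547 CPM (counts scaled to library size). No 2 libraries agreed within sampling noise. The library C-exo 3 stood apart from the other controls. Its Spearman correlation across miRNAs was 0.902 with C-exo 1 and 0.931 with C-exo 2, against 0.965 to 0.983 with the 3 R-exo libraries, so the tests of the members are also given without it. Picking a library for its likeness to R-exo favors larger group differences once it is left out. The p-values of that fit are therefore descriptive and give no support for a difference. Sums, correlations and the likeness to other miRNAs are given with all 6 libraries only. Summed markers of red cells, platelets, leukocytes, liver, striated muscle and pancreas were each found in both groups, and none of the markers found was at 0 in all libraries. The summed liver markers lay between 79866 and 109248 CPM in C-exo and between 76438 and 81303 CPM in R-exo.

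The members spanned a wide range of levels in plasma exosomes, and the order of the levels was nearly the same in every library. Levels are CPM after TMM scaling, a factor per library that evens out composition, and because mature strands have nearly one length they were not divided by it. let-7d-3p was by far the most abundant, with a mean of 857 CPM over the 6 libraries, and exceeded the next member in 6 of 6 libraries. let-7a-1-3p/let-7c-2-3p followed with 191 CPM, above let-7b-3p in 6 of 6 libraries. let-7b-3p, at 30.3 CPM, and let-7i-3p, at 27.0 CPM, were not separated, since let-7b-3p was higher in 3 of 6 libraries. let-7i-3p exceeded let-7e-3p, at 3.65 CPM, in 6 of 6 libraries. let-7e-3p exceeded let-7g-3p, at 1.41 CPM and the scarcest member, in 5 of 6 libraries. Across all 763 miRNAs, let-7d-3p ranked 68 in C-exo and 74 in R-exo, whereas let-7g-3p ranked 403 and 408. The summed level of the distinct members therefore followed let-7d-3p, which supplied between 71.9% and 90.8% of their counts.

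**Figure D1:**
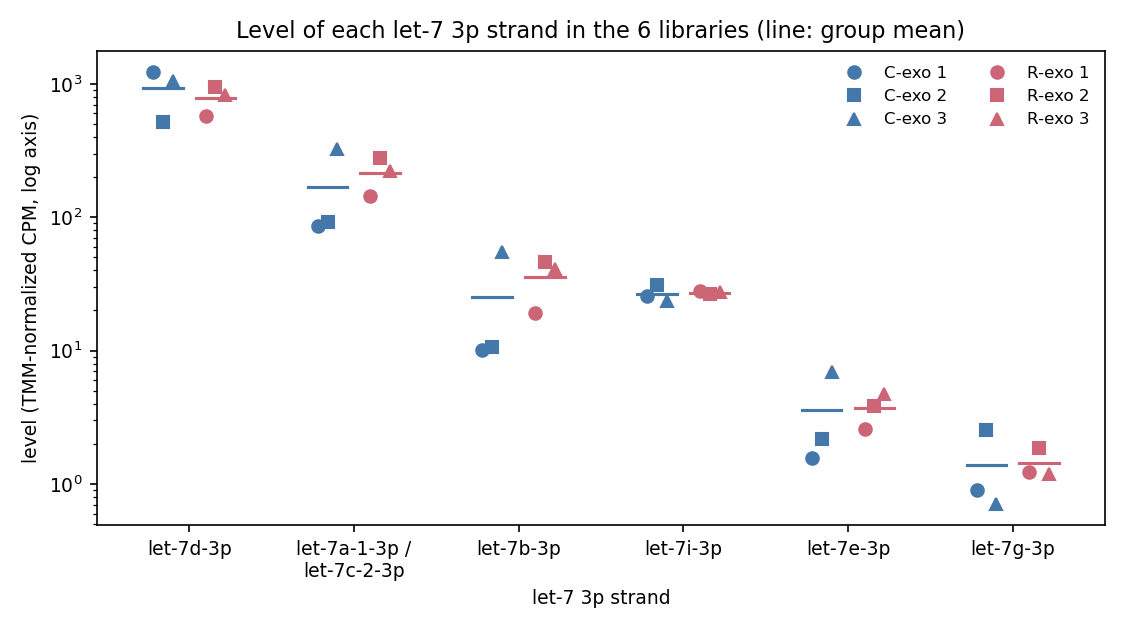
Level of each distinct let-7 3p strand (TMM-normalized CPM, log axis) in each library, ordered by mean level, with C-exo in blue, R-exo in red, 1 symbol per replicate number and a line at each group mean. The R-exo points of all 6 strands lie inside the range of the C-exo points, from let-7d-3p between 517 and 1221 CPM in C-exo down to let-7g-3p between 0.711 and 2.56 CPM.

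No let-7 3p strand was called different between R-exo and C-exo with all 6 libraries. Levels were compared by edgeR's quasi-likelihood test over the 404 miRNAs that passed a filter on low counts, and all 6 distinct members passed it. A miRNA was called at the study's criterion, more than a 2-fold change together with p below 0.05 before adjustment, and separately at an adjusted p under 0.05. Of the 404 miRNAs, 38 (9.41%) met the criterion, 8 of them (1.98%) higher in R-exo and 30 lower. With library size only as the scaling, the split was 18 higher and 15 lower, and with limma-voom 27 higher and 22 lower. No miRNA (0%) had an adjusted p under 0.05 by edgeR, DESeq2 or limma-voom, where an unadjusted p under 0.05 was reached by 38, 50 and 50 miRNAs. Of the distinct members, 0 of 6 met either rule. The groups overlapped for all 6 distinct members, while 52 of the 404 miRNAs (12.9%) had groups without overlap. Less of a strand per particle and fewer particles of the kind that carries it cannot be told apart in such libraries.

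let-7d-3p, the most abundant member, had 1221, 517 and 1052 CPM in C-exo replicates 1 to 3 and 579, 941 and 830.0 CPM in R-exo replicates 1 to 3. C-exo held both the highest and the lowest value, and the R-exo libraries lay between them. The mean was 930.3 ± 368 CPM (SD, n = 3) in C-exo and 783 ± 185 CPM in R-exo. The log2 fold change was -0.25 with a 95% interval of -1.31 to 0.81 (SE 0.47, adjusted p = 0.81, edgeR quasi-likelihood test with Benjamini-Hochberg adjustment). An exact permutation test, two-sided, gave p = 0.7, where 0.1 is the smallest p that 3 against 3 allows.

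let-7a-1-3p/let-7c-2-3p, a strand with the seed of let-7b-3p, had 85.6, 92.4 and 326 CPM in C-exo replicates 1 to 3. The R-exo replicates had 144, 277 and 222 CPM. Here C-exo 1 and C-exo 2 were below every R-exo library and C-exo 3 was above every one. The log2 fold change was 0.35 with an interval of -0.99 to 1.69 (SE 0.60, adjusted p = 0.80, edgeR quasi-likelihood test with Benjamini-Hochberg adjustment, exact permutation p = 0.4).

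let-7b-3p had 10.1, 10.6 and 54.8 CPM in C-exo against 19.2, 46.2 and 40.8 CPM in R-exo, again with C-exo 1 and C-exo 2 lowest and C-exo 3 highest. Its log2 fold change was 0.49 with an interval of -1.11 to 2.08 (SE 0.71, adjusted p = 0.76, edgeR quasi-likelihood test with Benjamini-Hochberg adjustment). let-7e-3p, whose gene neighbours miR-99b and miR-125a, had 1.57, 2.18 and 6.97 CPM in C-exo against 2.59, 3.88 and 4.75 CPM in R-exo. The order of its libraries at the ends was the same, with counts of 7 to 49 reads behind the values. The log2 fold change of let-7e-3p was 0.05, with an interval of -1.52 to 1.62.

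let-7i-3p was the steadiest member. It had 25.5, 31.1 and 23.5 CPM in C-exo against 27.8, 26.6 and 27.3 CPM in R-exo, so that its highest library exceeded its lowest 1.33-fold. The log2 fold change was 0.03 with an interval of -0.88 to 0.93, and its sign turned with upper quartile scaling (-0.028). let-7g-3p was close to the limit of these libraries, with 4, 20 and 5 reads in C-exo and 10, 13 and 9 reads in R-exo. In CPM these were 0.896, 2.56 and 0.711 against 1.23, 1.87 and 1.19. The log2 fold change was 0.01, with an interval of -1.76 to 1.78, to which both low counts and the spread between libraries contribute. Its sign turned with upper quartile scaling (-0.12) and without the filter (-0.084).

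The distinct members thus had their extremes in C-exo. For 6 of 6 the R-exo values all lay inside the C-exo range, which held for 135 of the 404 tested miRNAs (33.4%). The SD of the CPM was larger in C-exo for 6 of 6, as it was for 311 of 404 (77.0%). The highest library was C-exo 3 for 3 members (let-7a-1-3p, let-7b-3p and let-7e-3p), C-exo 2 for 2 (let-7g-3p and let-7i-3p) and C-exo 1 for let-7d-3p. The median log2 fold change was 0.04 over the distinct members and -0.05 over all tested miRNAs.

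Leaving out C-exo 3, a library picked for its likeness to R-exo, changed the calls of 2 distinct members. Without it, let-7a-1-3p/let-7c-2-3p was higher in R-exo with a log2 fold change of 1.28 (SE 0.45, adjusted p = 0.043, edgeR quasi-likelihood test with Benjamini-Hochberg adjustment), as was let-7b-3p with 1.78 (SE 0.51, adjusted p = 0.019, same test). let-7e-3p had 0.98 (adjusted p = 0.28, same test), let-7d-3p -0.14, let-7g-3p -0.32 and let-7i-3p -0.05. The same removal took the number of miRNAs with an adjusted p under 0.05 from 0 of 404 to 132 of 422, and the number meeting the criterion from 38 to 182, so the change was not particular to these strands. Without C-exo 1 the values shrank instead, to 0.034 for let-7a-1-3p/let-7c-2-3p and 0.13 for let-7b-3p, and without C-exo 2 to 0.10 and 0.17. Leaving out any other library than C-exo 3 left 0 members called by either rule. The platelet markers, of which 5 of 6 were found, summed to 66274 CPM in C-exo 3 against 39429.9 and 25815 CPM in C-exo 1 and C-exo 2 and 60313 to 73564 CPM in R-exo. The 5 leukocyte markers, all found, summed to 30581 CPM in C-exo 3 against 13455 and 11459 CPM in the other controls and 18389 to 34692 CPM in R-exo. The 6 striated muscle markers, all found, summed to 9818 CPM in C-exo 3 against 2151 and 3187 CPM in the other controls and 1801 to 5969 CPM in R-exo. The part of these lists in the levels of let-7a-1-3p and let-7b-3p was not tested.

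**Figure D2:**
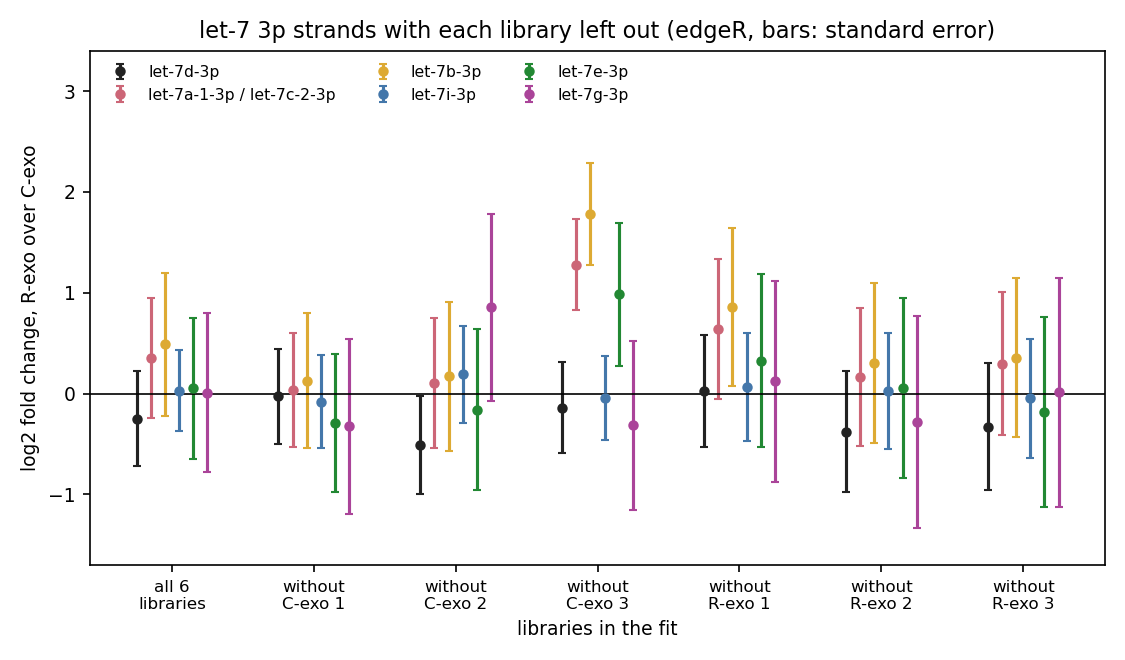
Log2 fold change (R-exo over C-exo, edgeR, bars are standard errors) of each distinct let-7 3p strand with all 6 libraries and with each library left out. The values of let-7a-1-3p/let-7c-2-3p and let-7b-3p move from 0.35 and 0.49 to 1.28 and 1.78 without C-exo 3, while let-7d-3p stays between -0.51 and 0.02.

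With all 6 libraries and TMM scaling, the guides of the same stem-loops had larger edgeR fold changes than the 3p strands, an order that turned for let-7b, let-7e and let-7g under some alternatives. All 9 let-7 and miR-98 guides had a log2 fold change above 0, between 0.57 for let-7e-5p and 1.60 for let-7f-5p with a median of 1.07, but 0 of 9 met the criterion or had an adjusted p under 0.05 in the edgeR fit with TMM scaling and the filter. The count at the criterion depended on the fit. It was 3 of 9 with RLE or upper quartile scaling, 4 without the filter or with DESeq2, and 5 with limma-voom, the replicate block or library size only, while 33 to 63 of all tested miRNAs met it in these fits. None of these fits gave a guide an adjusted p under 0.05. By its own processing, the paper found miRNAs higher in R-exo at this criterion and followed some of them by quantitative PCR. The sequences it lists for quantitative PCR include let-7c-5p, let-7f-5p and miR-98-5p. Without C-exo 3, 7 of 9 guides met the criterion, as did 182 of 422 miRNAs. let-7d-5p had 768, 604 and 1152 CPM in C-exo against 1716, 1377 and 1836 CPM in R-exo, without overlap, as in 12.9% of all tested miRNAs. let-7i-5p, the most abundant guide of the family in these libraries, had 25335, 11714 and 18943 CPM in the C-exo libraries and 36374, 25992 and 37458 CPM in those of R-exo, also without overlap. Their log2 fold changes were 0.97 (SE 0.44) and 0.83 (SE 0.42), each with an adjusted p of 0.47 (edgeR quasi-likelihood, Benjamini-Hochberg). The guides let-7a-5p, let-7c-5p and let-7g-5p had 1.20 (SE 0.75), 1.16 (SE 0.54) and 1.07 (SE 0.78), and let-7b-5p had 0.77 (SE 0.47). Without C-exo 3, let-7a-5p had 2.49, let-7c-5p 1.84 and let-7g-5p 2.75, and 7 of 9 guides had an adjusted p under 0.05, where 132 of 422 miRNAs did. In that fit let-7b-3p (1.78) exceeded let-7b-5p (1.15), and let-7e-3p (0.98) exceeded let-7e-5p (0.80). let-7b-3p was also above its guide with limma-voom (0.85 against 0.79) and with the replicate block (0.87 against 0.79), and let-7g-3p was above its guide without C-exo 2 (0.85 against 0.72). In let-7a-1, let-7c-2, let-7d and let-7i the 3p strand was below its guide under every alternative that gave a value for both strands. With identical rows merged, no separate value was given for let-7a-1-3p/let-7c-2-3p.

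**Figure D3:**
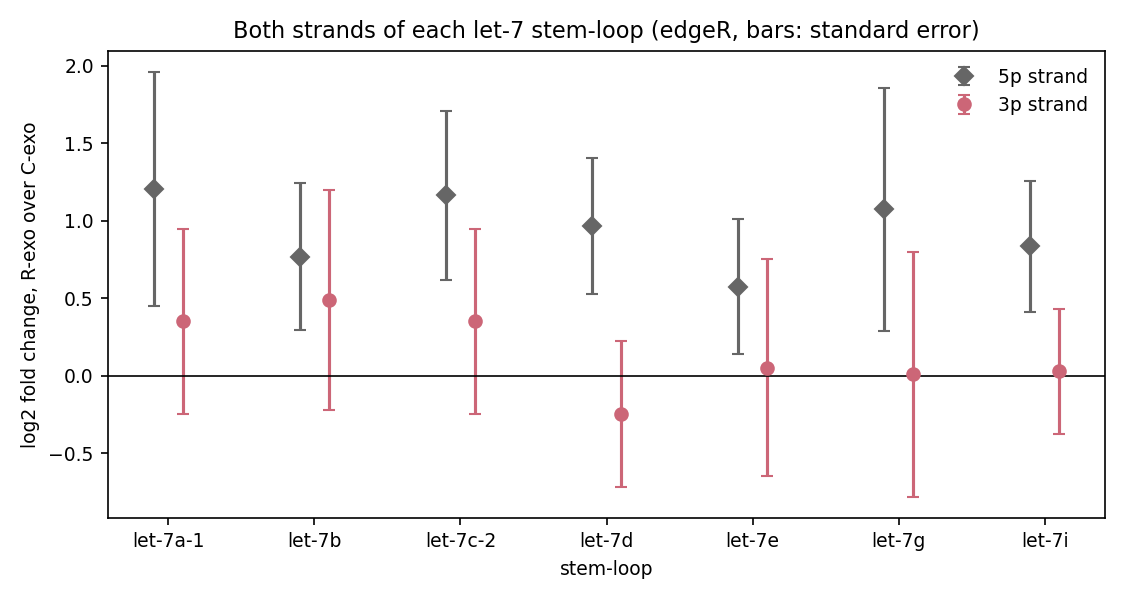
Log2 fold change (R-exo over C-exo, edgeR, bars are standard errors) of the 5p strand (grey diamonds) and the 3p strand (red circles) of each member stem-loop. The 5p values lie between 0.57 and 1.20, the 3p values between -0.25 and 0.49, and each 3p value is below that of its own 5p strand in this fit, which was not so for let-7b and let-7e without C-exo 3, for let-7g without C-exo 2, or for let-7b with limma-voom or the replicate block.

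Whether the strands of a stem-loop differed in their response was tested on their ratio within each library, which does not depend on the scaling between libraries. The ratio is given as 3p reads per 100 5p reads, and its log2 value was compared between groups with limma over the 130 stem-loops whose strands both passed the filter. In let-7d, the strands were close to balance in C-exo and the 3p strand was the minor one in R-exo. There were 159, 85.6 and 91.4 let-7d-3p reads per 100 let-7d-5p reads in C-exo and 33.8, 68.4 and 45.2 in R-exo, so that every R-exo library was below every C-exo library. The log2 difference was -1.19 with a 95% interval of -2.33 to -0.06 (SE 0.49). Its unadjusted p was 0.042 and its adjusted p 0.53 (limma, Benjamini-Hochberg over 130 stem-loops), and the exact permutation test gave p = 0.1, the smallest it can give. The difference therefore failed the correction for multiple tests. With each library left out in turn it ranged from -1.46 to -0.91, and without C-exo 3 it was -1.31 (adjusted p = 0.11, limma). Its sign could not turn, because every R-exo library was below every C-exo library. The unadjusted limma p was 0.052 without the mean trend and 0.077 with the replicate number as a block. It was 0.16 without C-exo 1, 0.060 without C-exo 2, 0.14 without R-exo 1 and 0.11 without R-exo 3.

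Over all stem-loops, 8 of 130 (6.15%) had an unadjusted p under 0.05 for the ratio, of which let-7d was the only one lower in R-exo (0.769% of those tested), and none (0%) had an adjusted p under 0.05. With a pseudocount of 2, or with at least 10 counts on each arm in every library, 2 stem-loops with such a p were lower. With the replicate number as a block 3 were, and let-7d was not among them. Without C-exo 3, 54 of 138 stem-loops had an unadjusted p under 0.05 and 22 an adjusted one. Groups without overlap were found for 18 of 130 stem-loops (13.8%), 6 of them lower in R-exo (4.62%). Among the 7 member stem-loops, these were let-7d and let-7a-1.

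let-7d-3p was the minor strand of let-7d in 5 of 6 libraries and the major strand in C-exo 1. It made up 61.4% of the let-7d reads in C-exo 1 (95% Wilson interval 60.4 to 62.4%). Its share was 46.1% (45.1 to 47.2%) in C-exo 2 and 47.7% (47.0 to 48.5%) in C-exo 3. In R-exo the shares were 25.2% (24.6 to 25.9%), 40.6% (39.8 to 41.4%) and 31.1% (30.5 to 31.8%). These intervals cover counting error only, since reads copied by PCR are not independent molecules. By mean ratio let-7d ranked 65 of the 130 stem-loops, near the middle, and in 48 of the 130 (36.9%) the 3p strand was the more abundant in all 6 libraries.

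The other member stem-loops were strongly biased to the 5p strand. let-7a-1 had 3.86, 6.92 and 3.50 reads of the 3p strand per 100 of let-7a-5p in C-exo and 3.38, 2.63 and 1.5 in R-exo. Every R-exo library was again below every C-exo library, by a narrow margin between R-exo 1 and C-exo 3. The log2 difference was -0.94 with an interval of -2.21 to 0.34 (SE 0.55, adjusted p = 0.53, limma, exact permutation p = 0.1). The same 3p reads set against let-7c-5p, for let-7c-2, gave 2.10, 3.75 and 3.62 in C-exo and 1.70, 2.51 and 1.45 in R-exo, with overlap and a log2 difference of -0.73. Without C-exo 3 the differences were -1.13 for let-7a-1 and -0.61 for let-7c-2. Neither ratio belongs to 1 stem-loop, since the 3p reads are shared and let-7a-5p and let-7c-5p each come from several gene copies. Against the sum of both guides, the values were 1.36, 2.43 and 1.78 in C-exo and 1.13, 1.28 and 0.737 in R-exo, without overlap (exact permutation p = 0.1).

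let-7e had 2.08, 2.005 and 5.12 reads of its 3p strand per 100 5p reads in C-exo and 2.01, 2.68 and 2.34 in R-exo, with overlapping groups and a log2 difference of -0.28, which became 0.14 without C-exo 3. let-7b had 0.303, 0.439 and 1.02 in C-exo and 0.438, 0.772 and 0.476 in R-exo, a difference of 0.08 that was 0.57 without C-exo 3 and -0.30 without C-exo 1.

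let-7i, with the most abundant guide, had only 0.101, 0.266 and 0.124 reads of let-7i-3p per 100 let-7i-5p reads in C-exo and 0.0765, 0.102 and 0.0729 in R-exo. These groups overlapped, since C-exo 1 was just below R-exo 2, and the log2 difference was -0.85 with an interval of -2.18 to 0.49, or -0.98 without C-exo 3 and -0.43 without C-exo 2. let-7g had the lowest mean ratio of the 130 stem-loops. It had 0.0805, 0.200 and 0.0079 reads of the 3p strand per 100 in C-exo and 0.0234, 0.0216 and 0.0118 in R-exo, where C-exo 3 was lowest of all. The difference was -1.52 with all libraries (adjusted p = 0.53, limma) and -2.84 without C-exo 3 (adjusted p = 0.028, limma), but -0.56 without C-exo 2 (adjusted p = 0.88, limma). It rests on 4 to 20 reads of let-7g-3p per library.

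Taking the 7 member stem-loops side by side, the log2 difference of the ratio was below 0 in 6, against 69 of all 130 stem-loops (53.1%). Its median was -0.85 over the members and -0.18 over all. Members that share 3p reads, let-7a-1 and let-7c-2, count separately here. Summed over the members, the 3p reads per 100 reads of their guides were 3.64, 3.29 and 2.77 in C-exo and 1.28, 2.03 and 1.28 in R-exo. Without let-7d, which supplies most of the 3p reads, the values were 0.342, 0.719 and 0.796 against 0.331, 0.571 and 0.343 and the groups overlapped. The summed guides stood at 36922, 19928 and 52958 CPM in the control libraries and 60562, 63733 and 88305 CPM in R-exo, while the summed 3p strands had 1345, 656 and 1465 CPM against 774, 1297 and 1126 CPM.

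**Figure D4:**
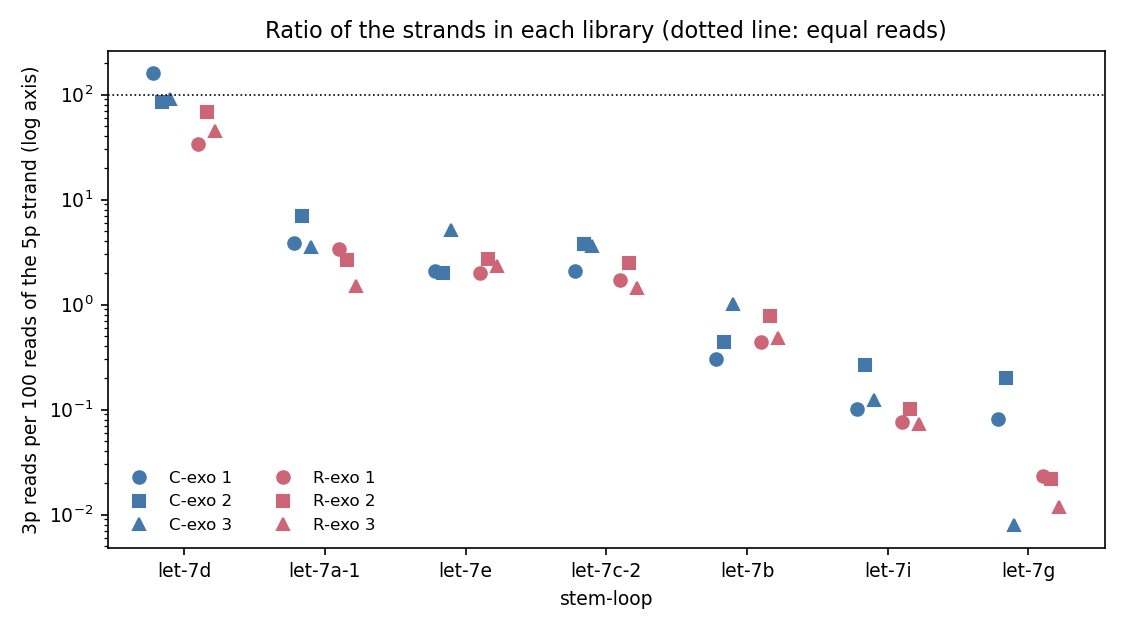
Reads of the 3p strand per 100 reads of the 5p strand (log axis) for each member stem-loop in each library, with C-exo in blue and R-exo in red and a dotted line where the strands are equal. let-7d lies near the line, between 33.8 and 159, the other stem-loops lie at 6.92 or below, and the R-exo points are all below the C-exo points in let-7d and let-7a-1.

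The members fell into sets by how their levels ran across the 6 libraries. These correlations are descriptions over 6 libraries that share their scaling. The log2 CPM of let-7a-1-3p, let-7b-3p and let-7e-3p ran together, with Pearson's r of 0.995 between let-7a-1-3p and let-7b-3p and 0.94 between each of them and let-7e-3p. let-7d-3p, whose gene lies in the cluster of let-7a-1, had r = 0.31 with let-7a-1-3p. Its level ran opposite to that of let-7i-3p, with r = -0.85, while let-7g-3p and let-7i-3p had r = 0.87. These values describe little variation, since let-7i-3p varied only 1.33-fold and let-7g-3p rests on 4 to 20 reads per library. Both strands were highest in C-exo 2. With their own guides, let-7a-1-3p and let-7b-3p had r = 0.91 and 0.86, but let-7d-3p had 0.04, let-7g-3p -0.26 and let-7i-3p -0.27.

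Within the let-7a-1 and let-7d cluster, reads of let-7a-1-3p per 100 of let-7d-3p were 7.01, 17.9 and 31.0 in C-exo and 24.8, 29.5 and 26.8 in R-exo (exact permutation p = 0.4). The low values were those of C-exo 1 and C-exo 2. The guides of these genes gave 289, 221 and 809 let-7a-5p reads per 100 let-7d-5p reads in C-exo and 248, 768 and 808 in R-exo (exact permutation p = 0.7), so R-exo 1 was low on the guide side but not on the 3p side. let-7a-5p has other gene copies, which limits this comparison.

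Outside the family, the miRNAs whose log2 CPM ran most like the summed let-7 3p level were miR-92a-3p (r = 0.97), miR-451-3p (0.94), miR-128-3p (0.93), miR-139-5p (0.91) and miR-6324 (0.90), of 384 candidates over 6 libraries. miR-451-3p had only 1.02 to 5.60 CPM. miR-6324 had 0.128 CPM in C-exo 2 and 0.123 CPM in R-exo 1, below a count of 3. miR-92a-3p is also on the red cell marker list and miR-451-3p is the other strand of a listed miRNA. The 7 red cell markers, all found, summed to between 97349 and 218836 CPM in C-exo and between 59979 and 104201 CPM in R-exo. By single marker, 2 of the 7 met the criterion higher in R-exo and 0 lower, where 8 of 404 tested miRNAs were higher and 30 lower. The median log2 fold change of the markers was 0.37. Their part in the likeness above was not tested. Without let-7d-3p, a sum chosen after its values were seen, the closest were miR-27a-3p and miR-503-5p (both 0.99), miR-194-5p (0.98), miR-455-3p and miR-10b-5p (both 0.97). With that sum 43 of the 384 candidates had r over 0.9, against 5 with the whole sum.

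The 5 family 3p rows outside the member names were scarce. let-7f-1-3p had 6.02 to 40.1 CPM, let-7c-1-3p 1.15 to 7.82, let-7f-2-3p 1.41 to 8.37 and miR-98-3p 0 to 4.31 CPM, and let-7a-2-3p had at most 3 reads in a library. Of the 4 tested, 0 met the criterion, and their log2 fold changes lay between 0.01 and 0.99. miR-3596a to miR-3596d, annotated on the strand opposite to let-7 stem-loops, had 0 counts in all 6 libraries.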

How the data were processed

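The authors sequenced small RNA of plasma exosomes and deposited 1 table of raw counts, reads per mature miRNA and library, without normalization or pooling. Their processing notes name bcl2fastq, BWA and the rat build rn6. Trimming, the miRNA database, the use of strand and the rule for multiply matching reads are not given in the sources used here, so reads of near-identical let-7 strands may have been split or counted more than once. The labels and the methods differ in the speed of the last centrifugation.

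Libraries were grouped by their labels. The members and lists were chosen with earlier results of these data known. Values were given for the members, their 5p strands, the other family 3p rows, seed sharers, marker lists and the 5 miRNAs most correlated with the summed level. In R 4.3.3, edgeR 4.0.16 kept 404 of 598 miRNAs with a count (filterByExpr, minimum count 10, minimum total 15), applied TMM and the quasi-likelihood test with condition as the term. The log2 ratio of strands (pseudocount 0.5) was fitted with limma 3.58.1. Log2 CPM used a prior count of 2. P-values were adjusted by Benjamini-Hochberg, and single values were compared by exact two-sided permutation. The scripts were tested on simulated data. Alternatives were RLE, library size and upper quartile scaling, other filters and pseudocounts, DESeq2 1.42.0, limma-voom, merged identical rows, limma without the trend, each library left out and a replicate block. Sequences and neighbouring genes came from RefSeq (GRCr8) by name, and no coordinates are given because the builds differ.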

Additional observations from a re-analysis of the deposited data

How the results depend on the processing

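No let-7 3p strand that was tested met the criterion under the alternatives that kept all 6 libraries, and with at least 10 counts in every library let-7e-3p and let-7g-3p were not tested. Without the filter on low counts 63 miRNAs met it, in place of 38. With a library left out, the number meeting the criterion was 15 to 182, and with an adjusted p under 0.05 it was 0 to 132, the high values without C-exo 3. For the strand ratio the corresponding counts were 3 to 54 and 0 to 22 stem-loops. The sign of the log2 fold change turned for let-7g-3p with upper quartile scaling (-0.12) and without the filter (-0.084), and for let-7i-3p with upper quartile scaling (-0.028) and with at least 10 counts in every library (-0.0069). With a library left out, the range was -0.33 to 0.85 for let-7g-3p, -0.081 to 0.19 for let-7i-3p, -0.29 to 0.98 for let-7e-3p, -0.51 to 0.023 for let-7d-3p, 0.034 to 1.28 for let-7a-1-3p and 0.13 to 1.78 for let-7b-3p. For the strand ratio it was -0.30 to 0.57 for let-7b, -0.52 to 0.14 for let-7e, -2.84 to -0.56 for let-7g, -1.13 to -0.43 for let-7i, -1.19 to -0.61 for let-7a-1 and -1.004 to -0.56 for let-7c-2. The causes were not tested. The summed 3p to 5p ratio, -1.11 on the log2 scale, was -0.53 without let-7d, an alternative chosen after seeing the data. The median over all tested miRNAs was -0.05 with TMM and 0.10 with library size only. Relative to it, let-7d-3p stayed below 0 under both.

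The groups share replicate numbers but hold different rats, and the deviations of same-numbered libraries correlated at 0.33, -0.28 and 0.28, so the numbers were not taken as a pairing. With the replicate block, 38 miRNAs met the criterion, 18 of them the same as without it, and 25 were higher in R-exo. let-7d had an unadjusted p of 0.077 for the ratio with the block (adjusted p = 0.57, limma). Reads were fewest for let-7g-3p and let-7e-3p, whose values rest on 4 to 49 reads.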
